A study of Mus musculus with 30 samples.

Results

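*Cx3cr1* and 7 genes near it on mouse chromosome 9 (*Wdr48*, *Gorasp1*, *Csrnp1*, *Slc25a38*, *Rpsa*, *Eif1b* and *Rpl14*) were read from the expression table of sorted microglia of mice with and without the Cre recombinase in *Cx3cr1*. These 8 genes were given by name and are 8 of the 47643 genes of the table, and each of them passed the filter that left 16897 genes for testing. The 30 libraries came from 3 month-old male (M) and female (F) mice. WT mice (5 male, 4 female) were *Bin1* wt/flox and Cre-negative by the legends of the paper, whose supplement writes *Bin1* wt, Het mice (6 male, 5 female) were *Bin1* wt/flox::*Cx3Cr1-Cre*+, and Homo mice (5 male, 5 female) were *Bin1* flox/flox::*Cx3Cr1-Cre*+. By the legends, all groups carried at least 1 floxed *Bin1* allele, and the Cre allele came together with the loss of a *Bin1* copy, so that the effects of these cannot be told apart between Cre-positive and WT mice. The Cre line acts in any cell that uses the *Cx3cr1* promoter, which besides microglia includes other brain macrophages and blood monocytes. The paper's methods have the cells sorted by FACS as CD11b+ with intermediate CD45, whereas the growth protocol among the labels is for microglia in culture. The paper was followed here.

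CX3CR1 is a G protein-coupled receptor for the chemokine CX3CL1 (fractalkine), which neurons carry on their membrane and shed, and microglia are the main cells of the healthy brain that display it. In the Cre line used, the recombinase was placed in the *Cx3cr1* gene, so a Cre-positive heterozygote keeps 1 intact copy of the receptor gene. The neighbours have unrelated roles. *Csrnp1* encodes a nuclear protein induced by AXIN1, *Gorasp1* the Golgi stacking protein GRASP65, *Wdr48* a cofactor of the deubiquitinases USP1, USP12 and USP46, and *Slc25a38* a mitochondrial glycine carrier that feeds heme synthesis. *Rpsa* and *Rpl14* encode proteins of the small and the large ribosomal subunit, and *Eif1b* a homologue of the start codon selection factor EIF1.

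*Cx3cr1* (ENSMUSG00000052336) is annotated on the minus strand of GRCm38, chr9:119901616-120069879, with 3 transcripts, and its coding sequence lies in 1 exon, chr9:120051273-120052334. The gene is drawn long by 1 transcript with a 12-base exon at its far end, and *Csrnp1*, *Gorasp1* and the gene *Xirp1* lie inside that transcript. From the RefSeq start of *Cx3cr1*, the start of *Slc25a38* is 42.1 kb away, *Rpsa* 59.4 kb, *Csrnp1* 83.6 kb, *Gorasp1* 130.7 kb, *Wdr48* 173.4 kb, *Eif1b* 423.9 kb and *Rpl14* 503.1 kb. *Slc25a38*, *Rpsa*, *Eif1b* and *Rpl14* lie upstream of *Cx3cr1* and the others downstream. *Wdr48* and *Gorasp1* lie on opposite strands and overlap by 1331 bases, so reads from the overlap cannot be assigned by strand in libraries that do not mark it. The 250 bases before the start of *Cx3cr1* (GRCm38.p6, chr9:120068297-120068546, minus strand, RefSeq) are shown because this promoter drives the receptor on the intact allele and Cre on the other. They are written 5′ to 3′, with each GGAA, the core letters of sites for ETS factors such as PU.1, or its reverse complement in capitals.
Cx3cr1 promoter: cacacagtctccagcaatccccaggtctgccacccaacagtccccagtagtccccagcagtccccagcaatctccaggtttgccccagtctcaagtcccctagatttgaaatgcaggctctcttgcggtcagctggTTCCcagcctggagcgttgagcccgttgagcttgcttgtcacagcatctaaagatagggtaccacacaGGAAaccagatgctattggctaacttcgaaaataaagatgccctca
GGAA occurs 2 times in this stretch, counted over both strands, and 93.5% of 32851 RefSeq promoters of the same length hold it. CCAAT occurs 1 time (33.9% of promoters) and GATA 1 time (53.6%), with no overlap asked for or barred between motifs, and TATAAA occurs 0 times (12.4%).

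Libraries that stand apart or go against their labels were noted first. *Bin1*, the floxed gene, was at 230.3 to 289.5 FPKM (fragments per transcript length and sequencing depth) in the WT libraries and at 39.5 to 55.6 in the Homo libraries. The library labelled Het-F-0206 (42.7 FPKM) and the library labelled Het-M-0199 (51.8 FPKM) had *Bin1* within the Homo range. Het-F-0206 also had almost no *Cx3cr1*, whereas Het-M-0199 did not stand apart in *Cx3cr1*. Means, exact tests and list medians of Cre-positive females are therefore given with and without Het-F-0206, and other female values include it unless stated. The microglial markers were high throughout, with the summed level of 15 of them between 22990 and 33240 FPKM, and T cell markers summed to at most 0.567 FPKM. Relative depth, set to 1 for the median library, ranged from 0.668 to 1.41.

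*Cx3cr1* was lower in every Cre-positive library than in every WT library of the same sex, and did not differ detectably between Het and Homo mice. In male WT mice, *Cx3cr1* was at 1843, 2275, 2344, 1926 and 1829 FPKM. In male Homo mice it was at 813, 969, 726, 1112 and 1021 FPKM, and in the 6 male Het libraries it lay between 610 and 1209 FPKM with a median of 960.1. Every Cre-positive male library was thus below every WT male library. In female WT mice, *Cx3cr1* was at 2077, 2113, 1988 and 2068 FPKM. In female Homo mice it was at 1174, 1094, 1242, 1159 and 1169 FPKM, and in female Het mice at 1048, 13.9, 1071, 1243 and 1211 FPKM. The Cre-positive females also lay below all WT females, and within the Het group the library Het-F-0206 was far below the other 4.

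**Figure D1:**
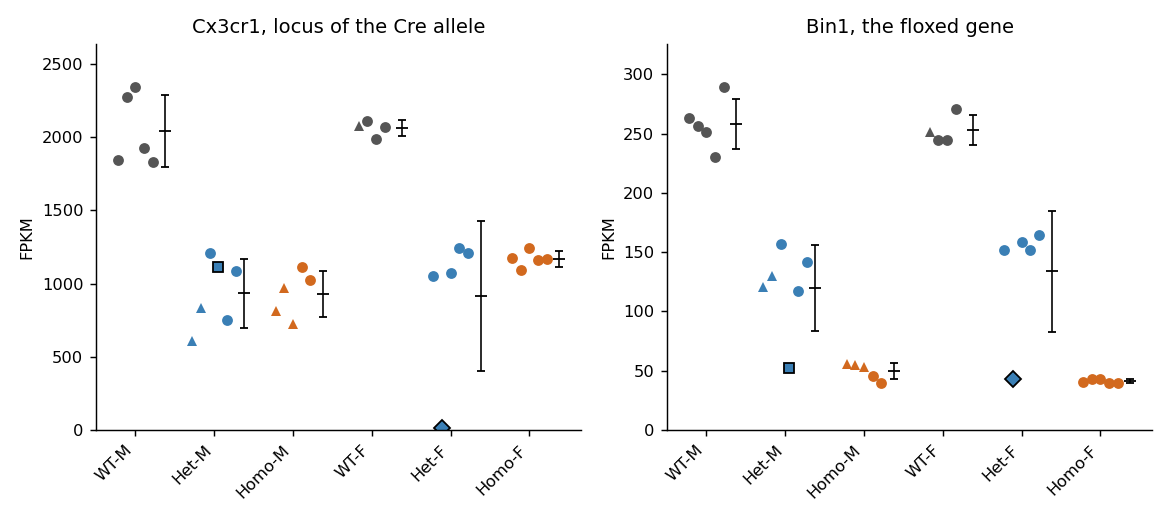
FPKM of *Cx3cr1* (left) and *Bin1* (right) in each of the 30 libraries by group, both from 0, with the mean and SD of each group as bars; triangles are early mouse numbers, the outlined diamond is Het-F-0206 and the outlined square Het-M-0199. *Cx3cr1* falls at the first step, from WT to Cre-positive, and not at the second, whereas *Bin1* falls at both.

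WT males averaged 2043 ± 247 FPKM (SD, n = 5), Het males 933 ± 237 (SD, n = 6) and Homo males 928 ± 157 (SD, n = 5). WT females averaged 2061 ± 52.6 FPKM (SD, n = 4), Homo females 1168 ± 52.6 (SD, n = 5) and Het females 917 ± 512 (SD, n = 5), or 1143 ± 97.7 (SD, n = 4) without Het-F-0206. Cre-positive males were at 45.6% of the WT mean, with single libraries between 29.8% and 59.2%. Cre-positive females were at 50.6% of the WT mean, and without Het-F-0206 at 56.1%, between 50.9% and 60.3%. Two-sided exact permutation tests of Cre-positive against WT libraries gave p = 0.000458 in males and p = 0.00200 in females (p = 0.00280 without Het-F-0206), each the smallest that the numbers of libraries can give. These are 3 of 59 exact tests on *Cx3cr1*, its neighbours and *Xirp1*, none of them adjusted for their number. In bulk RNA, fewer cells of a type and less RNA per cell cannot be told apart.

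The fit across all genes was less certain of the change than the separation of the libraries, and its outcome depended on Het-F-0206. With limma on log2(scaled FPKM + 0.1), fitted to all 6 groups, *Cx3cr1* changed by -1.23 in Cre-positive males (standard error 0.59, adjusted p = 0.206) and by -1.48 in females (standard error 0.65, adjusted p = 1.00). Without Het-F-0206 the change was again -1.23 in males, with a standard error of 0.16 (limma adjusted p = 2.86e-05), and -0.84 in females, with a standard error of 0.18 (limma adjusted p = 0.0349). The fit shares 1 spread over the groups, so this female library also widened the error of the males. A call was taken as an adjusted p below 0.05 together with a change of more than 1.5-fold, which 1.72% of the 16897 genes reached in males and 0.183% in females. Without Het-F-0206 these shares were 1.62% and 0.172%. *Cx3cr1* was called in both sexes only without that library among the fits of all 6 groups that left out at most 1 library.

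Ordered by their medians, the groups ran from male Het, male Homo, female Het and female Homo to male WT and female WT. The libraries did not overlap at the step from female Homo to male WT, which changes sex, Cre and *Bin1* at once. Its exact permutation p of 0.00794 is the smallest that 5 against 5 libraries can give. The other steps had larger p-values (exact permutation tests, p = 0.957, 0.984, 0.333 and 0.905). The order was taken from the same values, so these p-values only describe the steps. The size of the step from male Homo to female Het depended on Het-F-0206, with which the means were 928 and 917 FPKM. Without it the means were 928 and 1143 FPKM (exact permutation test, p = 0.0635), and the step from female Het to female Homo had an exact permutation p of 0.667. The difference between Homo and Het mice was 0.01 in males and 0.03 in females on the log2 scale without Het-F-0206, with 95% intervals from -0.34 to 0.35 and from -0.35 to 0.42. With that library the female difference was 1.31 (standard error 0.69, limma adjusted p = 1.00). No gene was called by limma between Homo and Het males (0%, with 651 at an unadjusted p below 0.05), and 2 genes, *Bin1* among them, between Homo and Het females (0.0118%). *Cx3cr1* was in neither set. Among males *Bin1* itself was not called, at means of 119.7 FPKM in Het and 49.7 FPKM in Homo mice. The male comparison holds Het-M-0199, which is labelled Het with *Bin1* in the Homo range. Without that library, 1 gene was called by limma between Homo and Het males. The log2 change between Cre-positive and WT mice was then compared between the sexes. For *Cx3cr1*, the female change minus the male change was 0.39 without Het-F-0206 (standard error 0.24, limma adjusted p = 0.607) and -0.24 with it (limma adjusted p = 0.941). Of all genes, 0% were called by limma in this test of the difference between the sexes, and 1432 had an unadjusted p below 0.05.

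Markers of neutrophils and of the choroid plexus were lower on the median in Cre-positive mice of both sexes, beside *Cx3cr1*. The summed level of 5 neutrophil markers was 42.2 to 343 FPKM in WT males, 0 to 186 in Het males and 0 to 80.3 in Homo males. *Ngp* and *Lcn2*, granule proteins of neutrophils, and *Chil3*, a marker of monocytes and neutrophils, were called lower in Cre-positive males. Of all genes, 1.72% were called in males. *Chil3* was 1 of 4 monocyte markers, of which 2 lay below 0 and 2 above 0 in each sex. The median log2 change of these 4 was -0.82 in males and -0.57 in females (-0.59 without Het-F-0206). Early mouse numbers were held by Cre-positive males and by no WT male, which the fit behind these calls did not take into account. The 4 choroid plexus markers summed to 0.297 to 433 FPKM in WT males and to at most 29.6 in Cre-positive males, with 0 of 4 called. In females, the choroid plexus markers summed to 0.735 to 200.4 FPKM in WT mice and to at most 3.10 in Cre-positive mice, and the neutrophil markers to 6.11 to 151 FPKM in WT, 0 to 84.4 in Het and 0.219 to 68.3 in Homo mice, with 0 called. The median log2 change was -2.58 in males and -2.41 in females for the 4 choroid plexus markers, and -4.17 and -1.54 for the 5 neutrophil markers, with every marker of both lists below 0 in both sexes. Their part in the change of *Cx3cr1* was not tested. None of the 15 microglial markers was called in either sex, beside 1.72% of all genes in males and 0.183% in females. At these shares, a count of 0 in a short marker list says little about the list. The median log2 change of the microglial markers was -0.16 in males and 0.00 in females, beside 0.02 and 0.00 over all genes tested. The 4 border macrophage markers had medians of -1.02 and -0.47 and the 4 oligodendrocyte markers 0.90 and 0.32. Those of the 4 astrocyte markers were 0.42 and 0.41 and of the 4 neuronal markers 0.36 and 0.39. The 3 tested endothelial markers had medians of -0.34 and 0.04. None of these markers was called in either sex. The male medians do not take the number range into account. Summed oligodendrocyte markers had a median of 17.5 FPKM in WT, 43.4 in early and 18.8 in late numbered Cre-positive males. For border macrophage markers these were 28.1, 14.9 and 9.45 FPKM. Without Het-F-0206 the female medians were 0.02 for microglia, -2.41 for choroid plexus, -1.63 for neutrophils and -0.40 for border macrophages. They were 0.33 for oligodendrocytes, 0.41 for astrocytes, 0.39 for neurons and 0.10 for endothelium.

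None of the 7 neighbours was called in either sex, in the fit of all libraries or without Het-F-0206. Their log2 changes in Cre-positive mice ran from -0.33 (*Gorasp1*) to 0.28 (*Slc25a38*) in males, with a median of -0.01, and from -0.15 (*Wdr48*) to 0.06 (*Csrnp1*) in females, with a median of -0.08. Without Het-F-0206 the female changes ran from -0.14 to 0.06 with the same median. With no adjustment of the limma p, 1 of 7 (*Gorasp1*) was below 0.05 in males and 0 of 7 in females, beside 3920 and 705 of all genes. At the shares of 1.72% and 0.183% called over all genes, a count of 0 among 7 is not by itself a result about them. Their spread over all 30 libraries was smaller than that of *Cx3cr1*, whose coefficient of variation was 42.9%, and ranged from 8.55% for *Wdr48* to 28.3% for *Slc25a38*.

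**Figure D2:**
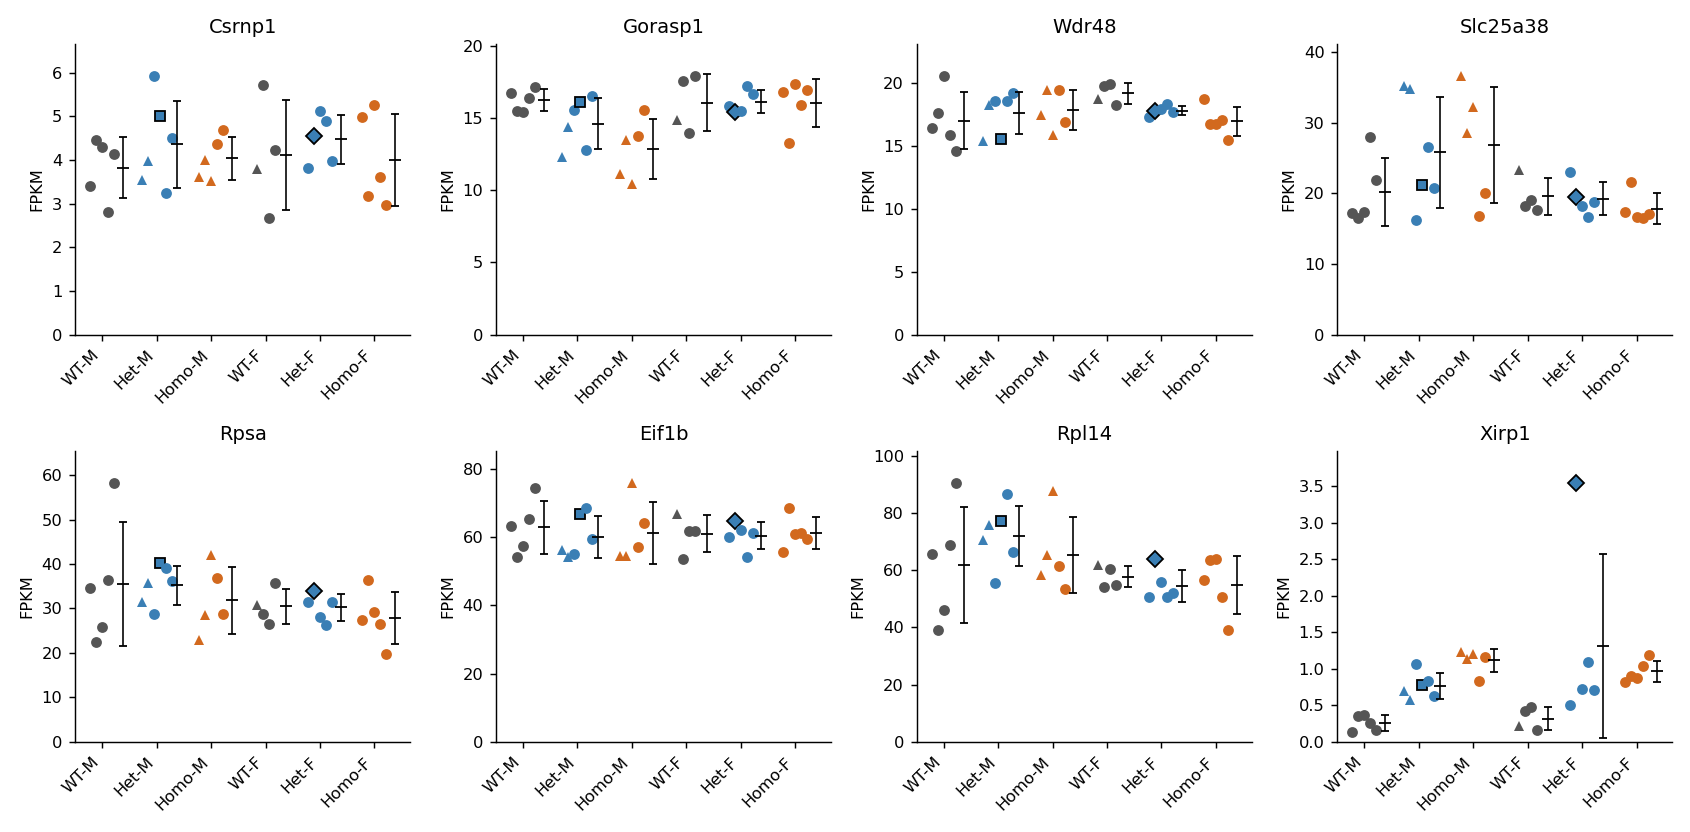
FPKM of the 7 neighbours of *Cx3cr1* and of *Xirp1* in each of the 30 libraries by group, each panel from 0, with mean and SD as bars; triangles are early mouse numbers, the diamond is Het-F-0206 and the square Het-M-0199. The groups overlap for each neighbour, *Slc25a38* is high in the early numbered Cre-positive males, and *Xirp1* is higher in each Cre-positive library than in every WT library.

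*Gorasp1*, which helps to stack Golgi cisternae, was at 16.7, 15.5, 15.4, 16.4 and 17.2 FPKM in male WT mice and at 11.1, 13.5, 10.4, 13.8 and 15.6 FPKM in male Homo mice. In male Het mice it lay between 12.3 and 16.5 FPKM (median 15.0). The lowest Homo libraries were below all WT libraries, but the groups overlapped. The first 3 of these Homo libraries have early mouse numbers, which no WT male had. Cre-positive males averaged 12.3 ± 1.65 FPKM at early numbers (SD, n = 5) and 15.0 ± 1.47 at late numbers (SD, n = 6). The log2 change in Cre-positive males was -0.33 (standard error 0.11, limma adjusted p = 0.0920), and the exact permutation test gave p = 0.0156. Neither takes the number range into account. Over 12 other settings of the fit, late numbered mice alone among them, the log2 change lay between -0.35 and -0.13. The limma adjusted p lay between 0.0715 and 0.734 there. WT females averaged 16.1 ± 1.96 FPKM (SD, n = 4) and Cre-positive females 16.1 ± 1.22 (SD, n = 10) (exact permutation test, p = 0.957), or 16.2 ± 1.27 (SD, n = 9) without Het-F-0206 (exact permutation test, p = 0.895). Among 10 genes of Golgi stacking and tethering, 0 were called in either sex, beside 1.72% of all genes in males and 0.183% in females.

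*Wdr48*, whose protein activates its partner deubiquitinases, was the steadiest gene of the 8. It averaged 17.0 ± 2.25 FPKM over WT males (SD, n = 5) and 17.7 ± 1.56 over Cre-positive males (SD, n = 11). In females it was at 18.7, 19.8, 19.9 and 18.3 FPKM in WT mice, and between 15.5 and 18.7 FPKM in the 10 Cre-positive mice. The female ranges met at their ends (exact permutation test, p = 0.00999, and 0.0140 without Het-F-0206), at a log2 change of -0.15 (standard error 0.10, limma adjusted p = 1.00). None of 6 deubiquitinase partners and related genes was called in either sex, beside 1.72% of all genes in males and 0.183% in females.

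*Csrnp1*, a low gene in these cells, averaged 3.82 ± 0.70 FPKM over WT males (SD, n = 5) and 4.21 ± 0.79 over Cre-positive males (SD, n = 11), and 4.11 ± 1.26 over WT females (SD, n = 4) and 4.24 ± 0.83 over Cre-positive females (SD, n = 10). No difference was detected in either sex (exact permutation tests, p = 0.356 and 0.809). Without Het-F-0206, Cre-positive females averaged 4.20 ± 0.88 FPKM (SD, n = 9; p = 0.867 by exact permutation). Of 18 tested genes among its paralogs and the immediate early genes, 1 was raised and 1 lowered in males, beside 1.72% of all genes called, and 0 were called in females, beside 0.183%. *Ier3*, an early response gene, went from a mean of 3.35 to 7.11 FPKM in males (log2 change 1.05, standard error 0.28, limma adjusted p = 0.0382). *Klf2*, a transcription factor that keeps macrophages quiescent, went from 3.10 to 1.39 FPKM (log2 change -1.32, standard error 0.29, limma adjusted p = 0.0141). The fit behind these male calls did not take into account that early mouse numbers were held by Cre-positive males and by no WT male.

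*Slc25a38*, the gene nearest to *Cx3cr1* among the 7, varied most of them, and its high values in males went with the early mouse numbers. It was at 17.2, 16.5, 17.4, 27.9 and 21.9 FPKM in male WT mice, and at 36.6, 28.6, 32.3, 16.8 and 20.1 FPKM in male Homo mice, of which the first 3 have early numbers. In male Het mice the early numbered libraries were at 35.2 and 34.7 FPKM and the other 4 between 16.2 and 26.6. Early and late numbered Cre-positive males thus did not overlap. The log2 change between Cre-positive and WT males was 0.28 (standard error 0.14, limma adjusted p = 0.231), and -0.02 among late numbered mice alone. WT females averaged 19.6 ± 2.58 FPKM (SD, n = 4) and Cre-positive females 18.6 ± 2.24 (SD, n = 10) (exact permutation test, p = 0.446), or 18.4 ± 2.34 (SD, n = 9) without Het-F-0206 (exact permutation test, p = 0.425). None of 12 genes of heme synthesis and its carriers was called in either sex, beside 1.72% of all genes in males and 0.183% in females.

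*Rpsa* and *Rpl14* were spread widely within groups and did not differ detectably between Cre-positive and WT mice of the same sex. *Rpsa* averaged 35.5 ± 13.9 FPKM over WT males (SD, n = 5) and 33.7 ± 5.98 over Cre-positive males (SD, n = 11), and 30.5 ± 4.00 over WT females (SD, n = 4) and 29.1 ± 4.60 over Cre-positive females (SD, n = 10). *Rpl14* averaged 62.0 ± 20.3 FPKM over WT males (SD, n = 5) and 69.0 ± 11.8 over Cre-positive males (SD, n = 11), and 57.8 ± 3.79 over WT females (SD, n = 4) and 54.7 ± 7.78 over Cre-positive females (SD, n = 10). The exact permutation p was at least 0.388 in each of these comparisons. Without Het-F-0206, Cre-positive females averaged 28.5 ± 4.51 FPKM of *Rpsa* and 53.7 ± 7.52 of *Rpl14* (SD, n = 9, exact permutation tests, p = 0.481 and 0.324). Over the 30 libraries, the correlation with the mean log2 level of 77 other cytosolic ribosomal protein genes was 0.90 for *Rpl14* and 0.74 for *Rpsa*, as a description of libraries that share their preparation, where the median ribosomal gene had 0.87 with the others. The annotation names 9 pseudogenes of *Rpsa* and 1 of *Rpl14*, with which reads can be shared, so both levels are uncertain. None of the 77 ribosomal genes was called in either sex, beside 1.72% of all genes in males and 0.183% in females. The median log2 change of the 77 genes was 0.19 in males and 0.02 in females (0.01 without Het-F-0206).

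*Eif1b* averaged 62.8 ± 7.80 FPKM over WT males (SD, n = 5) and 60.5 ± 7.23 over Cre-positive males (SD, n = 11), and 61.0 ± 5.50 over WT females (SD, n = 4) and 60.8 ± 4.09 over Cre-positive females (SD, n = 10) (exact permutation tests, p = 0.568 and 0.937). Without Het-F-0206, Cre-positive females averaged 60.3 ± 4.09 FPKM (SD, n = 9; p = 0.828 by exact permutation). The 95% interval of its log2 change was -0.29 to 0.03 in males and -0.18 to 0.17 in females. Among 13 start codon selection factors, 0 were called in either sex, beside 1.72% of all genes in males and 0.183% in females. Between Homo and Het mice, 0 of the 7 neighbours were called, beside 0% of all genes in males and 0.0118% in females. The log2 differences of the neighbours lay between -0.20 and 0.05. The change between Cre-positive and WT mice was called different between the sexes for 0 of the 7 neighbours, beside 0% of all genes. The adjusted p of the neighbours was at least 0.593 by limma, or 0.582 without Het-F-0206.

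The region around the Cre allele was then read beyond the named genes. Of 51 genes of the table within 1 Mb of *Cx3cr1* as annotated, 27 were tested, 19 of them not among the 8 genes above. Of these 19, 1 was called in males, where 1.72% of all genes were, and 1 in females, where 0.183% were, and in both it was *Xirp1*. *Ccr8*, the chemokine receptor gene next to *Cx3cr1*, was at 0 in 26 of 30 libraries and was not tested. *Plcd1*, a phospholipase C gene at -974.8 kb from the *Cx3cr1* start (negative is downstream), passed the adjusted p in males (limma, 0.0112) at a log2 change of 0.52, short of the 1.5-fold threshold.

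**Figure D3:**
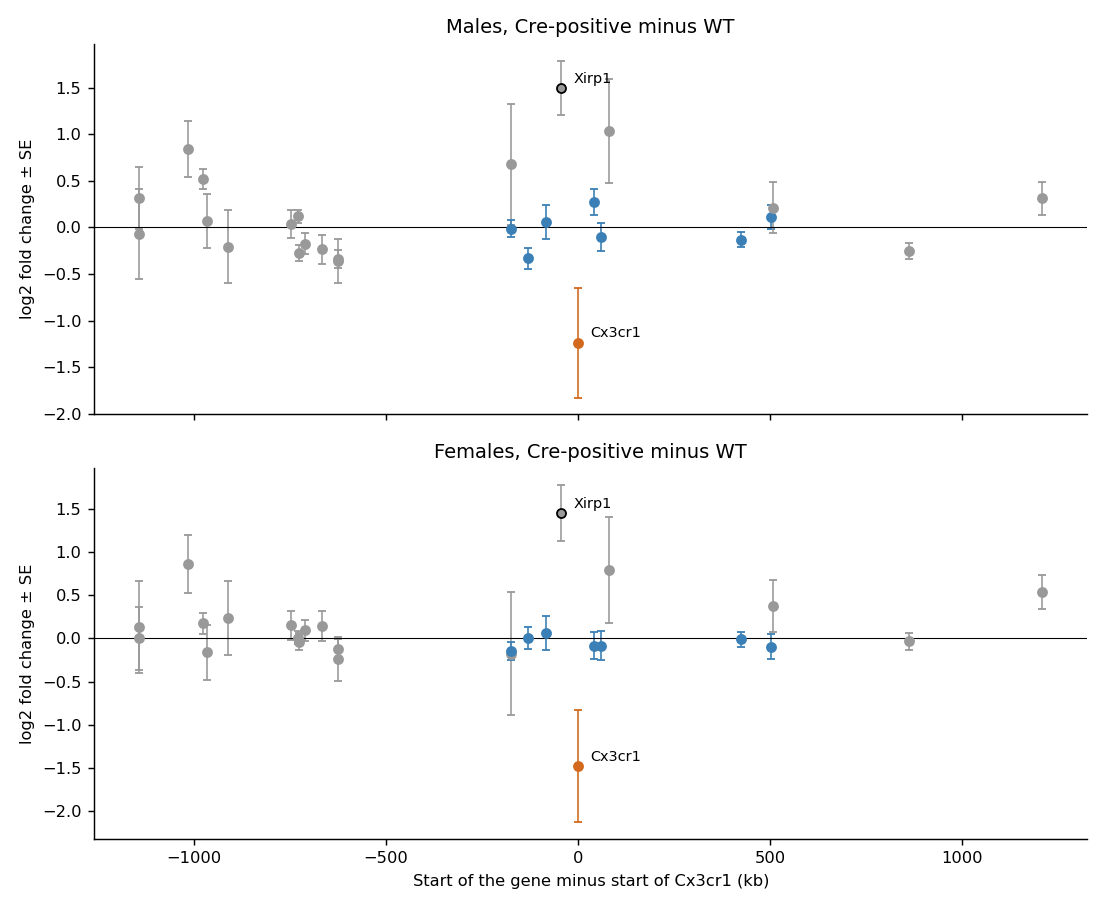
Log2 change in Cre-positive against WT mice with its standard error for the 27 tested genes near *Cx3cr1*, by the distance of their start from that of *Cx3cr1*, males above and females below; *Cx3cr1* is orange, its 7 neighbours blue, other genes grey, and called genes have a black rim. *Cx3cr1* is the lowest and *Xirp1* the highest point in both sexes, and the 7 neighbours lie close to 0.

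*Xirp1* (ENSMUSG00000079243, minus strand, chr9:120013755-120023598) encodes an actin-binding protein of striated muscle and starts 44.7 kb downstream of the *Cx3cr1* start. Its values were low throughout. In male WT mice it was at 0.141, 0.348, 0.370, 0.264 and 0.156 FPKM, in male Homo mice at 1.24, 1.14, 1.20, 0.834 and 1.16 FPKM, and in the 6 male Het mice between 0.574 and 1.07 FPKM with a median of 0.737. In female WT mice it was at 0.219, 0.428, 0.471 and 0.161 FPKM, in female Homo mice at 0.822, 0.908, 0.869, 1.04 and 1.18 FPKM, and in female Het mice at 0.503, 3.54, 0.725, 1.10 and 0.706 FPKM. Every Cre-positive library was above every WT library, and the highest of the 30 was Het-F-0206, the library with the least *Cx3cr1*.

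The log2 change of *Xirp1* in Cre-positive mice was 1.49 in males (standard error 0.29, limma adjusted p = 0.00729) and 1.45 in females (standard error 0.32, limma adjusted p = 0.0497). Without Het-F-0206 it was 1.49 (standard error 0.23, limma adjusted p = 0.000669) and 1.24 (standard error 0.26, limma adjusted p = 0.0311). The female call was at the edge of the threshold and was lost when 1 library was left out in 24 of 30 cases, and in 6 of 11 other settings. The male call was kept in all 30 cases and lost with late numbered mice alone (limma adjusted p = 0.0680). With a pseudocount of 1 the log2 change was 0.59 in males and 0.64 in females, since the scale flattens low genes. *Xirp1* was singled out after its values were seen, so the exact permutation p (0.000458 in males and 0.00200 in females, the smallest possible) only describes the lack of overlap. Between Homo and Het males the mean was 1.12 ± 0.16 (SD, n = 5) and 0.762 ± 0.180 FPKM (SD, n = 6) (exact permutation test, p = 0.00866), with overlap through Homo-M-0189 and an adjusted p of 0.999 by limma. In females without Het-F-0206 it was 0.965 ± 0.148 (SD, n = 5) and 0.759 ± 0.249 FPKM (SD, n = 4) (exact permutation test, p = 0.175). *Xirp1* lies inside the longest *Cx3cr1* transcript on the same strand, so reads from an intron of that transcript and reads from *Xirp1* cannot be told apart.

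The library Het-F-0206 was compared with the other 4 female Het libraries. Its *Cx3cr1*, at 13.9 FPKM, was 1.22% of their median of 1141 FPKM, whereas the neighbours lay between 95.0% (*Gorasp1*) and 124% (*Rpl14*) of theirs. All 7 neighbours were within the range of the other 29 libraries, and 3 of the 7 within that of the other 4. The share of all genes within the range of the other 4 was not taken, so the count of 3 cannot be judged. *Xirp1* was 4.95 times the median of the other 4, and *Vill*, a villin-like gene, 3.20 times at 6.93 FPKM. These were the 2 of the 19 other tested genes of the region that fell outside the range of the other 29 libraries, as 4.48% of all tested genes did in this library. The same share was between 2.13% and 22.9% over all 30 libraries, so Het-F-0206 was not extreme as a whole.

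**Figure D4:**
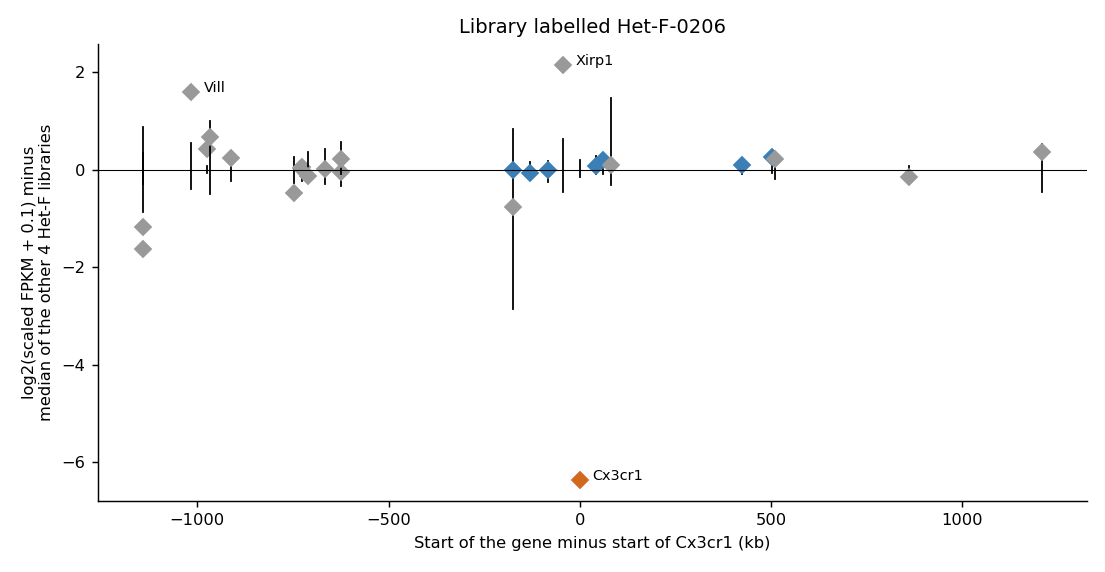
Log2(scaled FPKM + 0.1) in the library Het-F-0206 minus the median of the other 4 female Het libraries (diamonds), and the range of those 4 (vertical lines), for the 27 tested genes near *Cx3cr1* by distance of their start; *Cx3cr1* is orange, its 7 neighbours blue and other genes grey. *Cx3cr1* lies more than 6 log2 units down and *Xirp1* above 2, while the 7 neighbours lie near 0.

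Among 11622 genes with a mean of at least 1 FPKM, *Cx3cr1* was the gene with rank 2 from the lowest in Het-F-0206, at -6.36 on the log2 scale against the median of the other 4. The library was singled out for its low *Cx3cr1*, so this rank is a description and no test. The other 4 of the lowest 5 were *Pagr1a*, *Rps12l1*, *Gm12191* and *Gm4767*, and the highest 5 were *Gm6851*, *Rpl30-ps10*, *Ighj2*, *Gm24105* and *Gm23617*. None of these 9 exceeded 12.2 FPKM in any of the 5 libraries, and several are ribosomal protein copies or predicted genes, whose reads can be split among near-identical copies, so *Cx3cr1* was the one gene of high level in this group. The microglial markers summed to 31180 FPKM in Het-F-0206 and to between 30590 and 31760 FPKM in the other 4. Markers of border macrophages summed to 7.96 FPKM in Het-F-0206 and to 9.27 to 22.5 in the other 4, and those of monocytes to 5.00 and to 3.36 to 8.34 FPKM.

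The mouse numbers of the labels fall into an early and a late range. Early numbers were held by 3 Homo and 2 Het males, 1 WT female and 0 WT males. The labels do not say what separates the ranges, and the comparison was chosen with its pattern known. Early numbered Cre-positive males had 790 ± 133 FPKM of *Cx3cr1* (SD, n = 5) and late numbered ones 1048 ± 159 (SD, n = 6). Both ranges were below the WT males, of which the lowest was at 1829 FPKM. Late numbered Cre-positive males against WT males, all of them late, gave an exact permutation p of 0.00433, the smallest possible. In the limma fit of late numbered mice alone, which includes Het-F-0206, the log2 change of *Cx3cr1* was -0.97 in males (standard error 0.75, limma adjusted p = 0.727).

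**Figure D5:**
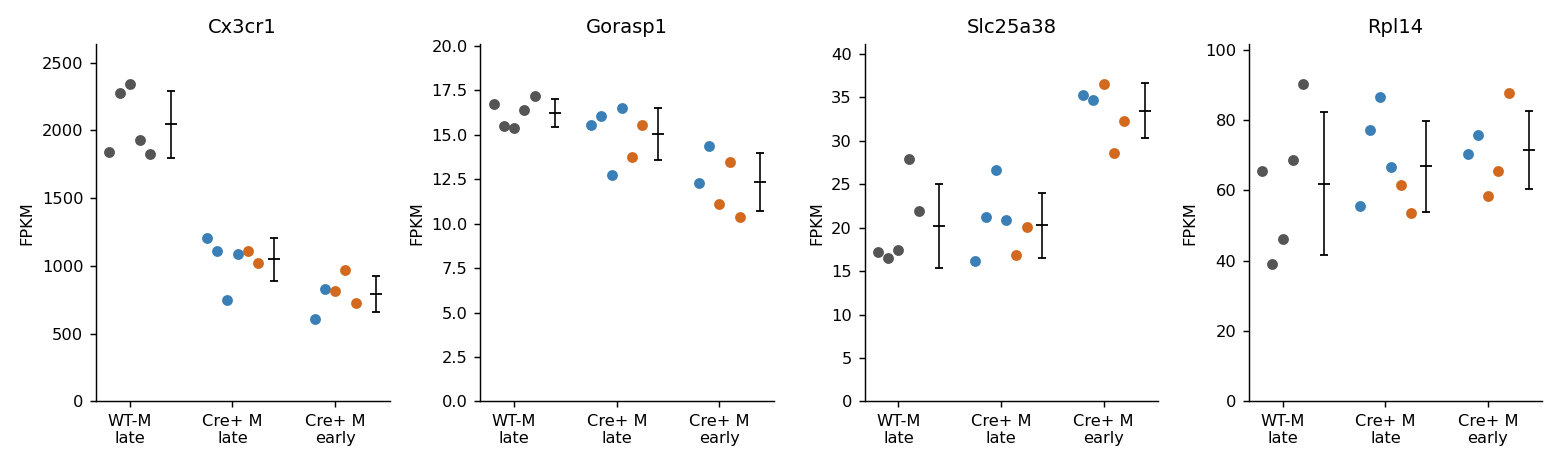
FPKM of *Cx3cr1*, *Gorasp1*, *Slc25a38* and *Rpl14* in male libraries, split into WT (all late), late and early numbered Cre-positive mice, with mean and SD as bars and Het in blue, Homo in orange and WT in grey. *Slc25a38* does not overlap between early and late Cre-positive males, *Gorasp1* leans the opposite way, and *Cx3cr1* is below WT in both ranges.

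In a limma fit of the Cre-positive males with genotype as a term, *Slc25a38* was higher in early numbered mice by a log2 change of 0.62 (standard error 0.10, adjusted p = 0.0212), with 33.5 ± 3.16 FPKM (SD, n = 5) against 20.3 ± 3.74 (SD, n = 6). It was the 1 of the 8 genes called, while 7.34% of all genes were called in this comparison. *Cx3cr1* (-0.60, standard error 0.19, limma adjusted p = 0.0553) and *Gorasp1* (-0.41, standard error 0.13, limma adjusted p = 0.0591) were lower in early numbered mice without passing the threshold. *Rpl14* had a log2 change of 0.00 (standard error 0.13). Beside these, the summed oligodendrocyte markers were 20.6 to 126 FPKM in early and 14.1 to 33.1 FPKM in late numbered mice, and the microglial markers 22990 to 30380 and 26770 to 33240 FPKM. The border macrophage markers did not overlap, at 13.7 to 20.6 FPKM in early and 7.97 to 12.1 in late numbered mice. Monocyte markers were at 5.03 to 10.9 and 3.78 to 5.12 FPKM, astrocyte markers at 88.7 to 115 and 64.6 to 96.1, and neutrophil markers at 0.0923 to 186 (median 65.3) and 0 to 12.7 (median 4.24). *Mobp*, a myelin gene 81.4 kb upstream of *Cx3cr1*, was higher in early numbered mice by a log2 change of 1.88 (standard error 0.50, limma adjusted p = 0.0349). Relative depth was 0.668 to 0.919 in early and 0.726 to 1.41 in late numbered mice. The part of these measures in the differences was not tested.

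The genes of the receptor's pathway were read as lists. Of 18 genes for the ligand, the proteases that shed it and the signalling proteins behind the receptor, 0 were called in either sex, beside 1.72% of all genes in males and 0.183% in females, shares at which a count of 0 among 18 says little about the list. Their median log2 change was -0.20 in males and -0.05 in females, with and without Het-F-0206, beside 0.02 and 0.00 over all genes. The male value does not take the number range into account. The summed level of the 18 genes had a median of 6546 FPKM in WT males. It was 5347 in early and 6996 in late numbered Cre-positive males. Of 16 tested chemokine receptor genes, 2 were called in males, both raised, beside 1.72% of all genes, and 0 in females, beside 0.183%, at medians of 0.24 and 0.15 (0.15 in females also without Het-F-0206). *Ccr1*, a receptor for CCL3 and CCL5, went from a mean of 7.60 FPKM in WT to 15.8 in Cre-positive males (log2 change 1.03, standard error 0.24, limma adjusted p = 0.0170). *Ackr3*, a scavenging receptor for CXCL12, went from 0.718 to 1.80 FPKM (log2 change 1.16, standard error 0.26, limma adjusted p = 0.0135). These male calls are from the fit of all libraries, where early numbers were held by Cre-positive males and by no WT male. Over all genes, the calls in males went from 291 to 46 with the number range as a covariate and to 28 with late numbered mice alone.

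The genes most like *Cx3cr1* over the 29 libraries other than Het-F-0206, by Pearson correlation of log2 levels, were *Leprotl1* (r = 0.86), *Wdr82* (0.85), *Mkrn1* (0.84), *Tubb2a* (0.84) and *Mfge8* (0.84). *Wdr82* lies on chromosome 9 as well, and the other 4 on other chromosomes. With Het-F-0206 included, their correlations were between 0.27 and 0.51. Of the neighbours, *Gorasp1* (0.70) and *Wdr48* (0.53) had the highest correlation and *Slc25a38* (-0.59) the lowest. Among the 20 Cre-positive libraries of these, where the step between WT and Cre-positive mice plays no part, the correlation with *Cx3cr1* was 0.90 for *Gorasp1*, 0.71 for *Wdr48* and -0.87 for *Slc25a38*. The libraries share their preparation and number range, so these values are descriptions of likeness between libraries.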

How the data were processed

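FACS-sorted microglia were sequenced by the authors as 30 libraries of 6 groups. The authors aligned reads to mm10 with OSA4, estimated gene levels with RSEM on Ensembl genes, and the deposited values are FPKM. DESeq2 was used by the authors on counts not analysed here. The table holds 6 further columns that match no listed sample, which were not used. The paper reports that 6 samples were removed for poor mapping and high duplication, and that these were outliers in a principal component analysis. Whether the 6 columns are those samples was not established. The paper names a single sequencing depth for all samples, but the deposited values hold no read totals of each library, so no counting error is given. The relative depth was read from the steps between the values of low genes.

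FPKM were scaled by the median of ratios (factors 0.939 to 1.15). Genes averaging 0.1 FPKM or more were kept, 0.1 was added before log2, and limma 3.58.1 in R 4.3.3 was fitted to all 6 groups with an intensity trend and Benjamini-Hochberg adjustment over 16897 genes. Fold changes on this scale understate low genes. Early and late numbers were compared in a limma fit of the 11 Cre-positive males with genotype as a term. Single genes were compared on FPKM by two-sided exact permutation tests in scipy 1.17.1 under Python 3.11.15. Intervals are normal intervals from the standard errors. Coordinates and biotypes come from GENCODE M21 on GRCm38, the same assembly as mm10, and promoters from RefSeq on GRCm38.p6, where 8 of 8 genes had an entry. The fit was tested on simulated data.

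The 8 genes, the gene lists and the markers were chosen with earlier results of these data known. Other genes named are *Bin1*, *Ccr8*, genes within 1 Mb that were called, up to 4 called genes of each list, the 5 genes most like *Cx3cr1* and the 5 highest and lowest in Het-F-0206; *Vill*, *Plcd1* and *Mobp* were added after their values were seen. Libraries of a group are separate mice by their labels. No pair of libraries held identical values (0 pairs). Alternatives were other pseudocounts, filters, scalings and weights, robust empirical Bayes, fits of 1 sex, the number range as a covariate or late numbers alone, no fold change threshold, and leaving out each library in turn.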

Additional observations from a re-analysis of the deposited data

Results flagged for a closer look

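A value was taken up here when the gap between the highest or lowest library of a group and the next one exceeded Dixon's 95% critical value for the group's range. Over 11 genes (the 8 genes, *Bin1*, *Xirp1* and *Vill*) in 6 groups, 66 groups were examined, and 5 were found. Chance gives about 3.3, but the counts cannot be compared, because the low *Cx3cr1* of Het-F-0206 was known beforehand and *Xirp1* and *Vill* were added after their values were seen. No test of a difference between the sexes passed for the 8 genes.

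In 3 of the 5 the library is Het-F-0206. *Cx3cr1* was at 13.9 FPKM there, and at 1048 to 1243 in the other 4 female Het libraries. *Bin1* was at 42.7 FPKM there against 152 to 164. *Xirp1* was at 3.54 FPKM there against 0.503 to 1.10. *Slc25a38* was at 21.6 FPKM in Homo-F-0201, against 16.6 to 17.4 in the other female Homo libraries. *Xirp1* was at 0.834 FPKM in Homo-M-0189, against 1.14 to 1.24 in the other male Homo libraries.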

How the results depend on the processing

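The drop of *Cx3cr1* in Cre-positive mice kept its direction in all fits. Of the 30 fits that each left out 1 library, its log2 change ranged from -1.29 to -1.16 in males and from -1.66 to -0.84 in females, and it was past the threshold only without Het-F-0206. It also passed in a fit of the males alone (-1.23, adjusted p = 0.00819 by limma) and, in an alternative chosen after seeing the data, without both Het-F-0206 and Het-M-0199 (-1.27 in males, -0.84 in females). The difference between Homo and Het males, 0.01 in the fit of all libraries, changed sign with array weights (-0.018) and with a library left out (-0.14 to 0.12), and that in females was 0.03 to 1.67.

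The number of neighbours called was 0 in each sex in every setting and fit. Of the other genes near *Cx3cr1*, 1 was called in males, and 0 with only genes averaging 1 FPKM or more, where *Xirp1* was not tested, or with late numbered mice alone, and 2 without scaling or without the fold change threshold. In females it was 1, and 0 with a pseudocount of 1, no filter, genes averaging 1 FPKM or more, quantile normalization, females alone, the number range as a covariate, or late numbered mice alone, and between 0 and 1 with a library left out.

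Directions of small neighbour changes turned as follows. In males they were *Csrnp1* with quantile normalization (-0.039) and with a library left out (-0.055 to 0.13), *Wdr48* without scaling (0.063), with array weights (0.0022), the covariate (0.074), late mice alone (0.086) or a library left out (-0.078 to 0.064), *Slc25a38* (-0.021) and *Rpsa* (0.015) with late mice alone, and, with a library left out, *Rpsa* (-0.23 to 0.084) and *Rpl14* (-0.024 to 0.26). In females they were *Csrnp1* with the covariate (-0.024) or a library left out (-0.12 to 0.24), *Gorasp1* with array weights (-0.018), the covariate (-0.085), late mice alone (-0.045) or a library left out (-0.063 to 0.064), *Slc25a38* with the covariate (0.056), *Eif1b* with late mice alone (0.024) or a library left out (-0.061 to 0.024), and *Rpsa* with a library left out (-0.15 to 0.0052). The causes were not tested. Without scaling, the median log2 change of all genes in males was 0.10 against 0.02. Over all genes, the calls in males went from 291 to 96 with males alone, 46 with the covariate and 28 with late mice alone, and with a library left out to values such as 117 without WT-M-0177 and 584 without Het-M-0197. In females they went from 31 to 66 with array weights and between 13 and 33 with a library left out, the lowest without WT-F-0200. The fragments behind each library's values are not in the table, beside the common depth that the paper names, which limits what can be said of low genes such as *Xirp1*.
Each mouse number occurs once. The paper describes the WT mice as littermates, but the labels name no litters, so the tests and fits could not take litter into account.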
